A study of Mus musculus with 12 samples.

Results

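The mitochondrial ribosomal proteins are the nuclear-encoded proteins of the ribosome that works inside mitochondria. They were taken as every row of the deposited tables whose name starts with Mrpl or Mrps followed by a number and at most 1 letter. That gave 76 genes of 22552 rows in each of the 3 stage tables, and the same 76 of 16394 rows in the knockout table. By their known place in the ribosome, 49 of them belong to the large subunit and 26 to the small subunit. The other 1, Mrps36, carries the name but is now known as a component of the α-ketoglutarate dehydrogenase complex. Mrps18a and Mrps30 are named after the small subunit and were counted with the large subunit, where their proteins sit. Of the 75 ribosomal members, 46 have a bacterial counterpart and 29 occur only in mitochondrial ribosomes.

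The cells were primordial germ cells, the embryonic precursors of eggs and sperm, of C57BL/6 mice. Wild-type cells of embryonic day 9.5 (E9.5) gave 2 libraries, those of E11.5 gave 2, and the E13.5m cells gave 3. A further 3 wild-type E13.5 libraries carry no sex in their titles, and 2 libraries came from Tet1 -/- cells of E13.5, called Tet1-KO in the table. Tet1 codes for a dioxygenase that acts on methylated cytosine in DNA. The stage tables also name a group E13.5f that stands in no sample title, while the series' design speaks of triplicates for it. Its values and the wild-type values of the knockout table are nearly the same column, the second being 1.04 times the first, with 5% and 95% limits of 0.973 and 1.06 over 10996 genes. The E11.5 to E13.5f and wild-type to Tet1-KO comparisons therefore share their E13.5 values, and no relation between them is reported. If E13.5f is that wild-type group, its libraries belong to the knockout sample set, and those of E9.5, E11.5 and E13.5m to the stage set. Stage or sex could then not be told apart from sample set wherever E13.5f is set beside the other stage groups.

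Mitochondria keep a small genome of their own, whose messenger RNAs all encode subunits of the respiratory chain and of ATP synthase. A dedicated ribosome translates them. Its RNAs come from mitochondrial DNA, but all of its proteins are made in the cytosol and imported. The small subunit reads the messenger RNA, and the large subunit joins the amino acids and passes the growing chain to the inner membrane. Germ cells multiply their mitochondria during fetal life, and oocytes later pass them to the next generation.

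Levels are in FPKM, a fragment count divided by transcript length and by the size of the library, and each table gives 1 pooled value for a group and none for a library. No spread between libraries can be given for a level, and the depth is unknown. The standard error (SE) of a log2 ratio is the one that the authors' deposited Cuffdiff test implies, and a gene counts as called where the deposited q or FDR is under 0.05. With 1 pooled value per group, this SE cannot be set beside a gene's own spread over its libraries. Nothing in the labels says that libraries of a group came from separate litters, so any spread between libraries that these tests take in may be technical. Stage levels are given on 1 scale, that of the E13.5f table, which left every ratio as deposited. Whole tables shifted, by a median log2 ratio of 0.32 from E9.5 to E11.5, 0.19 to E13.5f, 0.02 to E13.5m and -0.38 from wild type to Tet1-KO. Of 8 germ cell markers, 7 stood at 5 FPKM or more in each of the 6 groups, but not the same 7. As deposited, Dazl stood at 2.24 FPKM at E9.5 and 355 at E11.5, and Kit at 13.4 FPKM at E11.5 and 3.53 in E13.5m. Dazl was called in all 4 comparisons (lower only in Tet1-KO), Ddx4 higher from E9.5 to E11.5 and Kit lower in E13.5m. The 6 markers of gonad soma (4 listed in the knockout table) summed to 6.71 FPKM or less, with the largest sum in E13.5m. Of them Amh was called higher from E11.5 to E13.5m (0.129 and 4.01 FPKM as deposited). The part of soma in the members' values was not tested. The 3 endothelium markers (2 of them listed in the knockout table) summed to between 39.7 FPKM in E13.5m and 98.5 in Tet1-KO, with only Pecam1 at 5 FPKM or more. The 5 markers of mesenchyme and epithelium (3 listed in the knockout table) summed to 47.4 FPKM at E9.5, 22.6 at E11.5, 74.6 in E13.5f, 27.8 in E13.5m, 77.7 in wild type and 61.9 in Tet1-KO. Of them Krt8 was called lower from E9.5 to E11.5, Krt18 higher from E11.5 to E13.5f (20.1 and 68.6 FPKM) and Pdgfra, near 0 in both groups, lower in Tet1-KO, and the part of such cells in the members' values was not tested. The 5 blood markers, chiefly embryonic globins, summed to 1735 FPKM at E9.5, with 4 of them at 5 FPKM or more and Ptprc listed at 0, and to 19.9 FPKM at E11.5. With bulk RNA, fewer cells of a type and less RNA per cell cannot be told apart.

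Promoter sequence from RefSeq (GRCm38.p6) was found for 67 of the 76 genes. A pair of motifs known from genes for mitochondrial proteins was searched on both strands of the window from 250 bases before to 50 bases after the start. The first, bound by NRF1, reads GCGCA, any base, then GCGC. The second, CCGGAAG, is the core bound by ETS factors such as GABPA, and a match to either motif is not a match to the other. The first was present in 12 member windows (17.9%), against 5.19% of all 27025 genes with a window and 15.3% of the 4561 genes at a mean of 10 FPKM or more. The second was present in 24 (35.8%), against 9.93% and 26.0%. Both were present in 3 members (4.48%), against 1.12% and 3.68%. The 250 bases before the start are shown for 4 members, with the matches in capitals: those of Mrpl3 and Mrps22, whose ratios from E11.5 to E13.5f were the highest of the members, of Mrpl34, whose ratio was the lowest, and of Mrpl17, which holds both motifs. Mrpl3 lies at chr9:105053018-105053267 (plus strand), Mrps22 at chr9:98601680-98601929 (minus), Mrpl34 at chr8:71464676-71464925 (plus) and Mrpl17 at chr7:105811088-105811337 (minus).
Mrpl3: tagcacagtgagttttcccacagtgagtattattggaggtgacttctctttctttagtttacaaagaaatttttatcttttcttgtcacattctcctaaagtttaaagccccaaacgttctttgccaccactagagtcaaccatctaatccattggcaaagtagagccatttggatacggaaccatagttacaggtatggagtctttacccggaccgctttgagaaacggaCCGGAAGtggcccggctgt
Mrps22: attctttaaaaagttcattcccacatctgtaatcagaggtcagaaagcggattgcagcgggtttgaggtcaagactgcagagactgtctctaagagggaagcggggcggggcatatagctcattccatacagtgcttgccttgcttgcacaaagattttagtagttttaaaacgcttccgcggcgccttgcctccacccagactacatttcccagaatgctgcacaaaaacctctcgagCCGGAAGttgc
Mrpl34: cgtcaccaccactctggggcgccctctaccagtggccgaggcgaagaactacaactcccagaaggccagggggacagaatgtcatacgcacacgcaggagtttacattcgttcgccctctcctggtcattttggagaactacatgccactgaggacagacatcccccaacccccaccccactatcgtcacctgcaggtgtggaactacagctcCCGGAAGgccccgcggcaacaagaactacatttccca
Mrpl17: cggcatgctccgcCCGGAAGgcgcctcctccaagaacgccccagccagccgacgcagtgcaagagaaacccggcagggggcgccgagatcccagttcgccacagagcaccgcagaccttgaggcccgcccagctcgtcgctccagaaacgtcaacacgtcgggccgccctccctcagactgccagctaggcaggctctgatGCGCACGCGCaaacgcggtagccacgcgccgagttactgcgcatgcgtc
The ETS core starts at base -19 in Mrpl3, -11 in Mrps22 and -37 in Mrpl34. No relation between motifs and ratios was tested. In Mrpl17 the ETS core starts at -237 and the NRF1 motif at -49.

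The germ cells transcribed the whole set at every stage. All 76 members stood at 5 FPKM or more in each of the 6 groups. Their median level was 55.5 FPKM at E9.5, 74.6 at E11.5, 80.8 in E13.5f and 76.3 in E13.5m. Wild-type cells of the knockout table had a median of 84.9 FPKM, and Tet1-KO cells one of 69.5. That median sat between percentiles 80.7 and 82.2 of the genes at 1 FPKM or more in the same group. Summed, the members took between 1.06% and 1.10% of all FPKM in each group. The ratio of their median to that of the cytosolic ribosomal proteins, per unit of length, was 0.414 at E9.5, 0.581 at E11.5, 0.570 in E13.5f, 0.571 in E13.5m, 0.585 in wild type and 0.464 in Tet1-KO. That cytosolic list holds rows of low level, with 72 of 81 at 5 FPKM or more and 2 at 0 at E9.5. Summed, it took between 3.73% (wild type) and 4.97% (E9.5) of all FPKM.

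Levels within the set spread widely and kept their order. Among large-subunit genes, Mrpl28 stood at 221 FPKM at E9.5, 282 at E11.5, 320 in E13.5f and 271 in E13.5m, the highest mean of the set. Mrpl3, which encodes a core protein near the site of peptide bond formation in bacteria, stood at 131, 208, 423 and 312 FPKM in the same order. Mrpl38, a mitochondria-specific protein of the central protuberance of the large subunit, stood at 140, 220, 330 and 312 FPKM. These were followed by Mrpl24 and Mrpl18, with means of 185 and 183 FPKM. The lowest large-subunit genes were Mrpl21 at 12.9 to 14.4 FPKM, Mrpl17 at 15.4 to 27.7 and Mrpl27 at 22.2 to 26.3. In the small subunit the lowest was Mrps25, a mitochondria-specific protein, at 6.49, 7.24, 6.73 and 6.57 FPKM. Its deposited locus spans another gene, Nr2c2. Mrps36 stood at 23.5, 22.7, 35.0 and 18.8 FPKM. The rank order of the members was close between the 4 stage groups, with Spearman's rho from 0.834 between E9.5 and E13.5f to 0.957 between E11.5 and E13.5m over 76 genes, which share the libraries of each group.

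**Figure D1:**
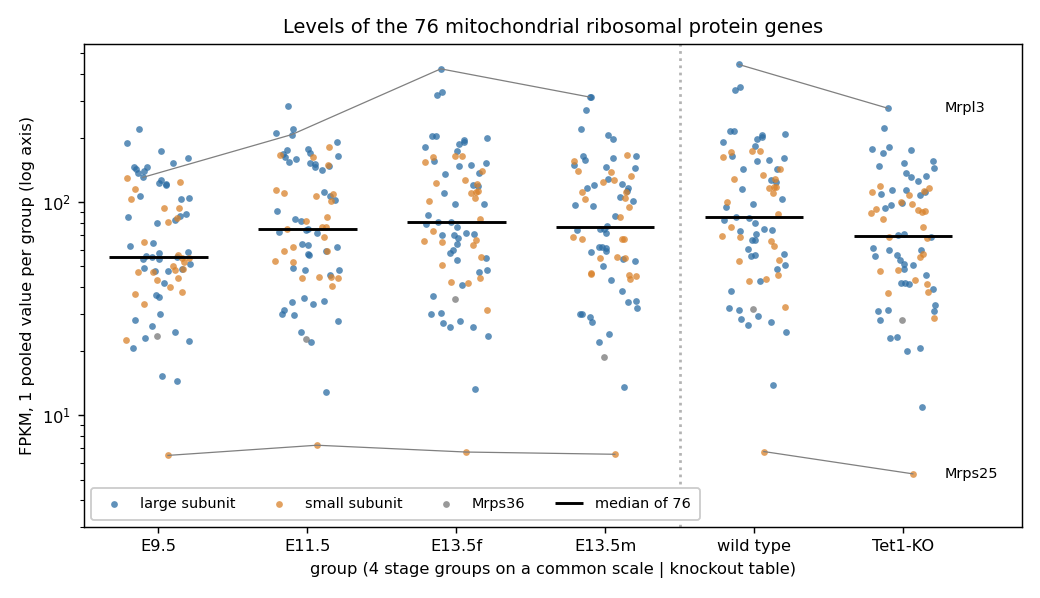
Level of each of the 76 genes in FPKM (log axis, 1 pooled value per group, no error available) in the 4 stage groups on a common scale and, right of the dotted line, in the knockout table on its own scale. Blue points are large-subunit genes, orange points small-subunit genes and the grey point Mrps36; black bars are medians, from 55.5 FPKM at E9.5 to 80.8 in E13.5f, and lines follow Mrpl3 and Mrps25.

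Across the 4 stage groups the pooled values of most members lay within 2-fold of each other. These are point values without an error, and most intervals of the members' ratios, given below, did not exclude a 2-fold change. The ratio of the highest to the lowest group had a median of 1.50 and ran from 1.12 in Mrps25 to 3.81 in Mrps22. It was under 2 in 66 of 76 members (86.8%), against 56.4% of the 6418 genes at 5 FPKM or more in all 4 groups, whose median was 1.88. Those genes were not matched to the members in level. The members with the widest ranges after Mrps22 were Mrpl3 (3.23), Mrps24 (3.02), Mrps5 (2.69), Mrps16 (2.62) and Mrpl47 (2.59), and each of them was lowest at E9.5. Of all members, 47 (61.8%) were lowest at E9.5 and 33 (43.4%) highest in E13.5f, against 57.5% and 45.9% of the same 6418 genes, so these shares lay near the background.

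From E9.5 to E11.5, when germ cells move from the hindgut into the genital ridges, 1 of 76 members was called, against 5.63% of all 12904 tested genes. This was Mrpl15, the gene of a core large-subunit protein (chromosome 1, 4763278 to 4775807, build mm9). It went from 86.3 to 147 FPKM and rose by a log2 ratio of 0.77 ± 0.23 (SE), with q = 0.0246 in the authors' deposited table. Its SE was the smallest of the members in each of the 4 comparisons, against a member median of 0.50 in this one. Relative to the median of the table its log2 ratio was 0.45, with an adjusted p of 0.342 by a two-sided normal test over all genes with an SE. By that test 0 of 74 members were called, against 4.89% of all genes. Where both groups reached 5 FPKM, the deposited test called the same 1 of 76, against 4.02% of all, and at an unadjusted p under 0.05 there were 4 of 76, against 19.8%.

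Every other member with an SE from E9.5 to E11.5 had a larger error than Mrpl15, and 6 of them had a ratio of larger size. The 5 highest belonged to 4 small-subunit genes and 1 large-subunit gene. Mrps24, whose bacterial counterpart lies where messenger RNA enters, stood at 22.7 and then 52.8 FPKM, a log2 ratio of 1.22 ± 0.62. Mrps5, a core protein with a bacterial counterpart, stood at 52.2 and 109 FPKM (1.07 ± 0.48). Mrps22, a mitochondria-specific protein, stood at 43.1 and 81.8 FPKM (0.92 ± 0.51). The large-subunit gene Mrpl47, whose bacterial counterpart sits near the exit of the peptide tunnel, had a ratio of 0.92 ± 0.61, and Mrps2 one of 0.89 ± 0.41. None of these 5 passed the test, and their q values ran from 0.188 to 0.394 in the authors' deposited table. The lowest ratios belonged to Mrpl53, which went from 54.2 to 34.2 FPKM (-0.66 ± 0.66), and to Mrpl23 (-0.41 ± 0.66), Mrpl52 (-0.32 ± 0.81), Mrps34 (-0.31 ± 0.57) and Mrps21 (-0.27 ± 0.77). Each of these intervals includes 0. In all, 56 members had higher and 20 lower values at E11.5 (37 above and 39 below the table median), with a median log2 ratio of 0.31, beside 0.33 over the 6966 tested genes at 5 FPKM or more. Small-subunit genes had a median of 0.53 and large-subunit genes one of 0.24, a difference that was not tested. The globin markers fell over the same interval, and their part in these ratios was not tested.

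From E11.5 to E13.5f, when germ cells have settled in the gonad, 0 of 74 tested members were called by the authors' Cuffdiff test, against 12% of all 12448 tested genes. Among genes at 5 FPKM or more the counts were 0 of 74 members and 9.35% of all, and at an unadjusted p under 0.05 there were 3 of 74 members and 26.5% of all. Mrpl48 and Mrpl49 had no completed test, with 48.3 and 70.0 FPKM for the first and 72.5 and 86.9 FPKM for the second. The nearest to a call was Mrpl3, which went from 208 to 423 FPKM, a log2 ratio of 1.02 ± 0.41 with q = 0.0803 in the authors' deposited table. Mrps22 went from 81.8 to 164 FPKM (1.01 ± 0.43), with q = 0.108 in the authors' deposited table. Both had an unadjusted p under 0.05, as did Mrps30. Next in height were Mrpl35 (0.81 ± 0.44), Mrpl23 (0.75 ± 0.57) and Mrps16 (0.72 ± 0.51), all 3 with a bacterial counterpart.

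The lowest ratio from E11.5 to E13.5f was that of Mrpl34, from 48.2 to 23.6 FPKM (-1.03 ± 0.60). Mrps30, a mitochondria-specific protein of the large subunit, went from 155 to 80.9 FPKM (-0.94 ± 0.43), with q = 0.142 in the authors' deposited table. Mrps18b, Mrps27 and Mrpl16 had ratios of -0.71 ± 0.46, -0.69 ± 0.42 and -0.50 ± 0.48. Relative to that table's median, 1 of 71 members was called, against 11.1% of all genes. It was Mrpl15 again, whose log2 ratio relative to that median was -0.50 ± 0.18 with an adjusted p of 0.0498, while its own log2 ratio of -0.31 was not called. The set as a whole had 44 members higher and 30 lower (33 above and 41 below the table median), with a median of 0.10 and quartiles of -0.11 and 0.36. The 6438 genes at 5 FPKM or more had a median of 0.17 and wider quartiles of -0.27 and 0.61.

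**Figure D2:**
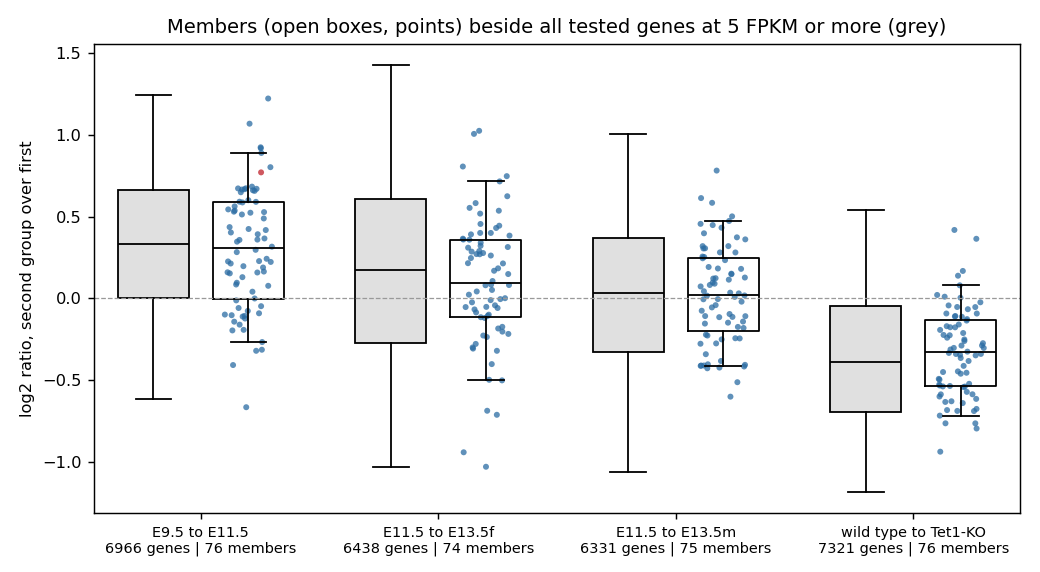
Log2 ratio of the second group over the first (y axis) for the members (open boxes with a point per gene) beside all tested genes that reach 5 FPKM on both sides (grey boxes), in the 4 comparisons; boxes are quartiles, whiskers run from the 5th to the 95th percentile, and the red point is Mrpl15. The member medians of 0.31, 0.10, 0.02 and -0.33 lie near those of the grey boxes, and the member boxes are narrower.

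From E11.5 to E13.5m 0 of 75 tested members were called by the authors' Cuffdiff test, against 4.88% of all 12311 tested genes. At 5 FPKM or more these were 0 of 75 and 3.57%, at an unadjusted p under 0.05 they were 1 of 75 and 17.2%, and relative to that table's median they were 0 of 69 and 5.36%. The 1 gene at an unadjusted p under 0.05 was Mrpl15, at 147 and 113 FPKM (-0.38 ± 0.18). Mrpl48 had no completed test here. The highest ratio was that of Mrpl23, whose bacterial counterpart lies at the tunnel exit, from 35.7 to 61.4 FPKM (0.78 ± 0.60). It was followed by Mrps22 (0.61 ± 0.45), Mrpl3 (0.58 ± 0.42), Mrpl38 (0.50 ± 0.42) and Mrps16 (0.47 ± 0.54). Mrpl34 was lowest again, from 48.2 to 31.8 FPKM (-0.60 ± 0.62), then Mrpl18 (-0.51 ± 0.46), Mrps28 (-0.43 ± 0.57), Mrps12 (-0.42 ± 0.50) and Mrpl20 (-0.42 ± 0.51). Every one of these 10 intervals includes 0. The set was split evenly, with 40 members higher, 35 lower and a median of 0.02.

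No deposited table sets E13.5m against E13.5f, so the log2 ratios against E11.5 were subtracted. That both ratios use the same E11.5 libraries was not modelled, so the error is overstated. If E13.5f is the wild-type group of the knockout table, sex and sample set cannot be told apart in these differences. Of 66 members with both errors 0 differed, against 0.169% of all 10677 genes, and 0 had an unadjusted p under 0.05, against 3.76%. Their differences, E13.5m minus E13.5f, had a median of -0.09 and ran from -0.90 ± 0.90 for Mrps36 to 0.57 ± 0.61 for Mrps27. The smallest unadjusted p was 0.319. On the common scale Mrps36 stood at 18.8 FPKM in E13.5m and 35.0 in E13.5f, and Mrps27 at 167 and 112.

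Tet1 itself stood at 6.36 FPKM in wild type and 0.218 in Tet1-KO and fell by 4.87 on the log2 scale, with FDR = 1.55e-10 in the authors' deposited table. In the cells without Tet1, 68 of 76 members had lower values, as had 5669 of the 7321 tested genes at 5 FPKM or more. By the authors' Cuffdiff test 0 of 76 members were called, against 6.16% of all 16394 tested genes; of the 1010 calls, 899 were lower. Among genes at 5 FPKM or more, 0 of 76 members were called, against 9.51%, and at an unadjusted p under 0.05 there were 6 of 76, against 21.4%. Relative to that table's median, 0 of 73 were called, against 3.61%. The lowest ratio was that of Mrpl38, from 347 to 181 FPKM, a log2 ratio of -0.94 ± 0.32 with FDR = 0.0545 in the authors' deposited table. With Benjamini-Hochberg adjustment over only the 10325 genes at 1 FPKM or more, its p was 0.0409, which passes, and its ratio relative to the median of the table was -0.56 with an adjusted p of 0.401.

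After Mrpl38 in the Tet1-KO comparison came Mrps22, from 173 to 99.95 FPKM (-0.79 ± 0.34), and Mrpl49, a mitochondria-specific large-subunit gene, from 94.6 to 55.8 FPKM (-0.76 ± 0.32). Mrpl47 (-0.76 ± 0.42) and Mrpl35 (-0.72 ± 0.33) followed. Mrpl3 stood at 443 and 276 FPKM (-0.68 ± 0.32). These 5 had FDR values from 0.133 to 0.267 in the authors' deposited table. Only 8 of 76 members had higher values in Tet1-KO, while 44 were above and 32 below the table median. Mrpl34 was the highest of them, from 24.6 to 32.8 FPKM (0.42 ± 0.53), then Mrps24 (0.36 ± 0.38), Mrps6 (0.17 ± 0.45), Mrps30 (0.14 ± 0.33) and Mrpl55 (0.08 ± 0.40). The member median of -0.33 lay within the quartiles of -0.69 and -0.04 over the 7321 genes at 5 FPKM or more, whose median was -0.39. Relative to the median of the table the members' median log2 ratio was 0.05.

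**Figure D3:**
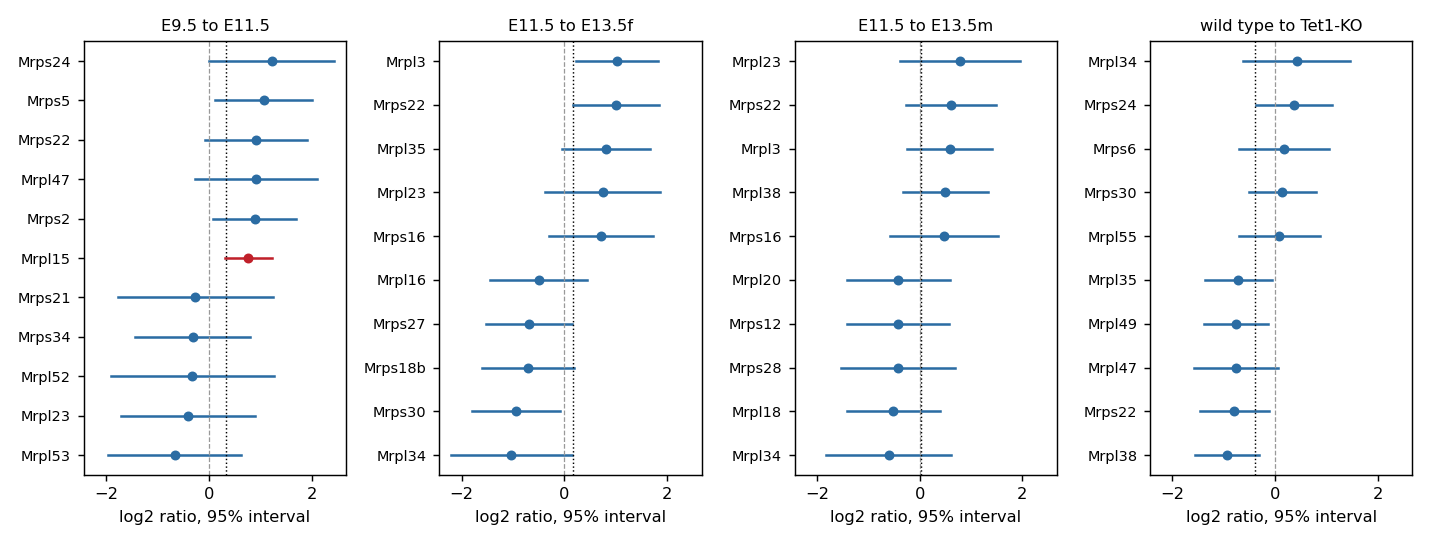
Log2 ratios with 95% intervals from the SE that the deposited test implies, for the 5 highest and 5 lowest members of each comparison and the called gene Mrpl15 (red). The dashed line marks 0. The dotted line marks the median over the tested genes that reach 5 FPKM on both sides (0.33, 0.17, 0.03 and -0.39). The panels hold different genes, chosen for their ratios.

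How far the tables bound a change differs between limits. The 95% interval of the log2 ratio stayed within 4-fold in either direction for 71 of 74 members from E9.5 to E11.5, 70 of 71 to E13.5f, 69 of 69 to E13.5m and 73 of 73 in Tet1-KO. It stayed within 2-fold for 0 of 74, 11 of 71, 8 of 69 and 22 of 73. For most members with an SE, the interval thus did not exclude a 2-fold change in at least 1 direction. The median SE was 0.50, 0.47, 0.48 and 0.36 in these comparisons.

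Grouped by role, the classes were set side by side without a test. The median log2 ratios of the large subunit were 0.24, 0.08, 0.01 and -0.32 in the 4 comparisons, and those of the small subunit 0.53, 0.13, 0.04 and -0.34. Genes with a bacterial counterpart had medians of 0.27, 0.10, 0.06 and -0.30, and mitochondria-specific genes 0.36, 0.05, 0.02 and -0.35. The Mrps18 paralogues, which arose from 1 bacterial protein, differed in level. Mrps18a stood at 137, 176, 204 and 158 FPKM over the stage groups and Mrps18b at 104, 167, 102 and 140, while Mrps18c stood at 38.0, 44.3, 44.0 and 45.7. None of the 3 was called in any comparison.

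**Figure D4:**
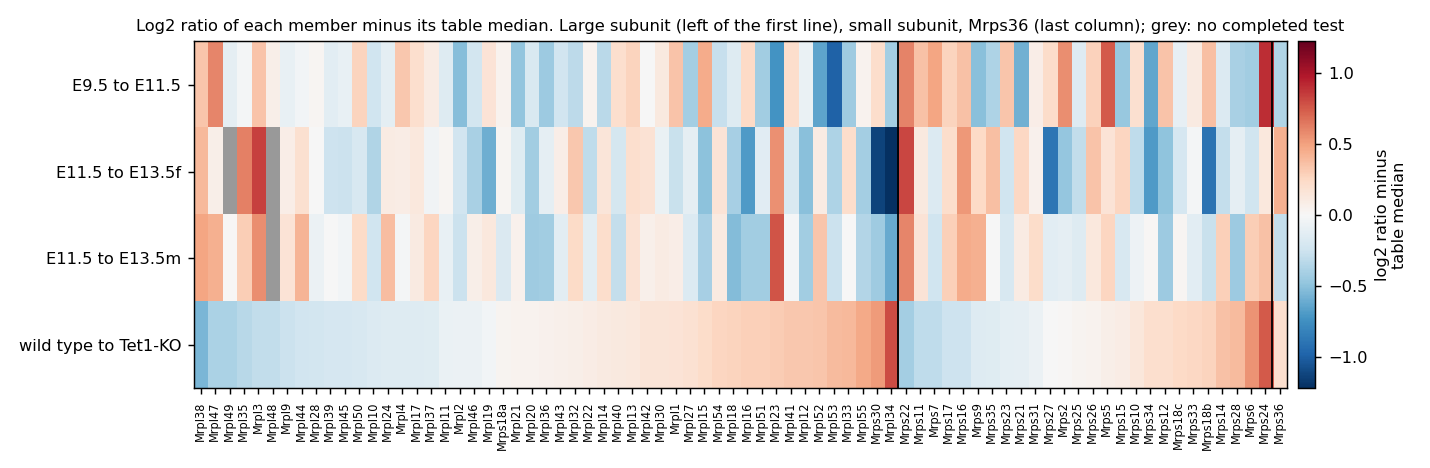
Log2 ratio of each member minus the median of its table (colour scale) in the 4 comparisons (rows); columns are the 49 large-subunit genes, then after a line the 26 small-subunit genes, then Mrps36, each class ordered by the Tet1-KO ratio, and grey cells had no completed test. The E11.5 to E13.5f row holds the darkest blue cells, Mrpl34 and Mrps30, and the E9.5 to E11.5 row the darkest red cell, Mrps24.

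Other parts of the mitochondrial translation apparatus were read beside the members. The 7 subunits that carry other names, such as Dap3 and Ptcd3, had 0 calls in all 4 tables and medians of 0.38, 0.16, 0.06 and -0.40. The 15 translation factors also had 0 calls. Of all tested genes 5.63%, 12%, 4.88% and 6.16% were called in the 4 tables. Among assembly and rRNA-modifying factors Nsun4, a methyltransferase needed to join the subunits, rose from 3.17 to 9.37 FPKM in E13.5f, with q = 0.0472 in the authors' deposited table, while relative to the table median its adjusted p was 0.0946. In the knockout table Nsun4 fell from 9.78 to 3.19 FPKM and Noa1, a GTPase of small-subunit assembly listed as 2610024G14Rik, from 54.8 to 26.9, with FDR values of 0.0289 and 0.0401 in the authors' deposited table. These were the 2 calls among 22 tested factors there, against 6.16% of all tested genes and 9.51% of those at 5 FPKM or more. Relative to the median of the knockout table neither was called, with adjusted p of 0.166 for Nsun4 and 0.323 for Noa1. Of 17 mitochondrial tRNA synthetases, 13 had lower and 4 higher values in Tet1-KO. The authors' Cuffdiff test called 5 of them lower, against the same 6.16% of all tested genes called and 9.51% of those at 5 FPKM or more. These were Cars2, Fars2, Lars2, Rars2 and Sars2, with log2 ratios from -1.03 to -1.30. Relative to that table's median none of these 5 was called, with adjusted p from 0.136 to 0.310 by the two-sided normal test. By that test Vars2 was called higher (6.69 and 12.7 FPKM, adjusted p 0.0401), which the authors' deposited table does not call. Cars2 also rose from 39.98 to 112 FPKM between E11.5 and E13.5f (1.49 ± 0.43), a call that held relative to the median with an adjusted p of 0.0279. No synthetase was called in the other 2 tables. The E13.5f and wild-type values are nearly the same column, so the 2 calls of Nsun4 are not independent, nor are those of Cars2.

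Ribosomal proteins of the cytosol and complex I subunits served as further comparisons. The cytosolic proteins had medians of -0.09, 0.21, 0.15 and -0.15. Their 5 calls were 2 of 80 tested genes, 1 of 78, 0 of 76 and 2 of 80. Of all tested genes 5.63%, 12%, 4.88% and 6.16% were called in these comparisons. Rpl10l and Rpl39l, retrogene copies known from the germ line, rose from E9.5 to E11.5, from 3.83 to 74.98 and from 1.18 to 32.7 FPKM. Rps18 fell from 372 to 121 FPKM in E13.5f and rose from 117 to 308 FPKM in Tet1-KO. The E13.5f and wild-type values are nearly the same column, so these 2 changes are not independent. Rpl4 fell from 3225 to 2372 FPKM in Tet1-KO (-0.44 ± 0.07), and its call was the 1 of these 5 that was lost relative to the table median, with an adjusted p of 0.748. From E9.5 to E11.5, 50 of their 80 tested genes had lower values and 69 lay below the table median. The nuclear-encoded subunits of complex I, which assemble with proteins made by the mitochondrial ribosome, had medians of 0.17, 0.38, 0.13 and -0.33. They had 0 calls among 36, 34, 34 and 36 tested genes. Nrf1, the transcription factor named above, fell from 128 to 76.7 FPKM in Tet1-KO (-0.74 ± 0.25), with FDR = 0.0476 in the authors' deposited table, and relative to that table's median its adjusted p was 0.5004. Tomm40, the channel of the outer membrane through which these proteins enter, fell from 370 to 149 FPKM between E11.5 and E13.5f (-1.31 ± 0.40), and relative to the median its adjusted p was 0.00476.

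**Figure D5:**
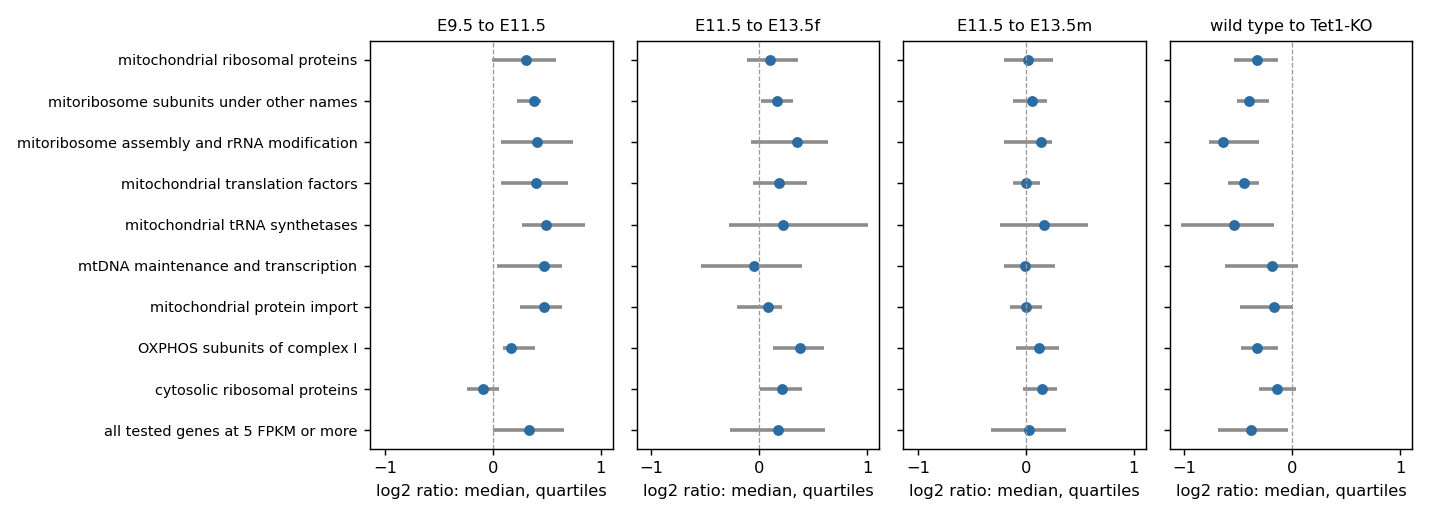
Median (point) and quartiles (bar) of the log2 ratio for the members, 8 related gene lists and all tested genes at 5 FPKM or more, in the 4 comparisons. The members, at 0.31, 0.10, 0.02 and -0.33, sit close to the all-gene medians, and the cytosolic ribosomal proteins are at -0.09 in the first panel.

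The members are short genes spread over 17 chromosomes, with 10 on chromosome 11 and 8 on chromosome 17 as the largest counts. Their median exon length was 1221 bases, against 2190 for protein-coding genes at a mean of 10 FPKM or more. By the gene starts of GENCODE, a gene on the other strand started within 1000 bases upstream, or overlapped the start by up to 200 bases, for 22 members (28.9%), against 15.5% of those genes. Among these neighbours 0 of 22 were called from E9.5 to E11.5 and 0 of 21 in each of the later stage comparisons. In Tet1-KO 2 of 22 were called, against 6.16% of all tested genes and 9.51% of those at 5 FPKM or more. Relative to the median of the knockout table neither of the 2, Sars2 and Klc4, was called, with adjusted p of 0.136 and 0.108. The start of Mrps12 lies 172 bases from that of Sars2, the mitochondrial seryl-tRNA synthetase. In Tet1-KO Sars2 fell from 65.4 to 26.5 FPKM (-1.30 ± 0.36), while Mrps12 stood at 128 and 113 FPKM (-0.18 ± 0.38). Klc4, 207 bases from Mrpl2, fell from 20.0 to 6.53 FPKM (-1.61 ± 0.46), while Mrpl2 had a ratio of -0.45. The difference between partners was not tested. Mrpl46 and Mrps11 start in opposite directions on chromosome 7, and their RefSeq windows before the start overlap by 41 bases. Their GENCODE genes overlap by more than the 200 bases allowed, so they are not among the 22.

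Some values carry a limit of mapping. The deposited loci of 9 members (Mrpl19, Mrpl24, Mrpl41, Mrpl48, Mrpl49, Mrpl53, Mrps25, Mrps27 and Mrps6) overlap another row of the table. The counting is not stated to use strand, so reads of such genes may be shared. Mrpl23, Mrpl48 and Mrps36 have named pseudogenes in the annotation, and their values are less certain for that reason.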

How the data were processed

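Primordial germ cell RNA was profiled in 12 libraries. According to the labels' protocols, each sample used 400 to 5000 cells (E9.5, E11.5, E13.5m) or 500 to 2000 cells (the other E13.5 samples), and 2 to 70 ng of cDNA was made with a low-input kit. Amplifying so little RNA makes low levels noisy. Bowtie, TopHat 1.3.1, Cufflinks and Cuffdiff 1.2.1 and 1.0.3, and build mm9 are named in the submitters' processing notes.

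Per the file headers, each of the 4 deposited Cuffdiff tables holds a single FPKM value for each group, the replicates being pooled by the authors. Their p-values, and the q-values of the stage tables, were used as deposited. The FDR of the knockout table was handled as a deposited score, since 2182 of its values exceed 1. The deposited test statistic of the stage tables is also a score. Library depth cannot be read from FPKM, and intervals for counting error were not made.

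Groups follow the samples' titles, ages and genotypes. The log2 ratio was computed from the 2 deposited FPKM values. Its SE is its size over that of the test statistic (stage tables) or over the normal deviate of the p-value (knockout), where that deviate exceeds 0.05, and intervals are 95%. Ratios relative to the median of genes at 1 FPKM or more were tested with a two-sided normal test, as was E13.5m minus E13.5f. Benjamini-Hochberg adjustment ran over all genes with an SE. Both tests were run on simulated data, with errors drawn from the same SEs and without shared E11.5 libraries. The planted changes were larger than any ratio of a member. That simulation therefore does not show how the tests perform at the sizes seen here. Rankings used log2(FPKM + 1), a scale on which changes of low genes look smaller. The text names every called member, the 5 largest rises and falls per comparison, the 5 highest and lowest mean levels, the Mrps18 paralogues, members without a completed test, and called genes of the other lists (of the marker lists in part). Neighbours and members named for a wide range, an overlapping locus or a printed promoter were chosen after their values were seen. The members and lists were chosen with earlier results of these data known. Promoters came from RefSeq (GRCm38.p6) and exon lengths and neighbours from GENCODE of GRCm38, matched by symbol; loci of the tables are mm9. The scripts ran in Python 3.11.15 with scipy 1.17.1, pandas 2.3.3, matplotlib 3.10.9 and numpy 2.4.6.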

Additional observations from a re-analysis of the deposited data

How the results depend on the processing

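No paired analysis was possible because the deposited tables hold 1 pooled value per group, and leaving out a replicate was not run for the same reason. Of 47 alternative values of the main results, 40 stayed within the limits set and 7 moved. Where 0 members were called, a stricter threshold or a minimum ratio could only return 0 again. Those values could not move, so the count of 40 does not measure how stable the results are. From E9.5 to E11.5 the 1 called member became 0 at a threshold of 0.01, 0 with a log2 ratio of at least 1, and 0 relative to the table median, where the log2 ratio of Mrpl15 was 0.45. From E11.5 to E13.5f the count went from 0 to 1 relative to the median, also Mrpl15. In Tet1-KO it went from 0 to 1 among genes at 1 FPKM or more, adjusted again, and to 1 at 5 FPKM or more, an alternative chosen after seeing the data; both calls are Mrpl38, with fewer genes adjusted over. The median log2(FPKM + 1) change of the members in Tet1-KO was -0.31 and became 0.068 relative to the table median, by construction of the shift. Centring also turned the members' medians from 0.30 to -0.02 and from 0.09 to -0.10 in the first 2 stage comparisons. These changes of sign were counted among the 40. The table medians subtracted were those of plain log2 ratios, so the centred values mix the scales. With plain log2 ratios throughout, the centred member medians were -0.01 from E9.5 to E11.5, -0.09 to E13.5f and 0.05 in Tet1-KO. Adjustment computed again, 1 row per symbol, and the subunits under other names in place of Mrps36 left each of the 4 counts as it was. The share of promoters with a motif was 13.4% for NRF1 and 25.4% for ETS before the start only. With a median SE of 0.36 to 0.50, a change under 2-fold was not detectable for most members.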

Other observations

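Other genes that serve the same organelle had few calls. Of 11 genes of mitochondrial DNA maintenance and transcription, 0 were called by the authors' Cuffdiff test in any of the 4 tables, with 3, 1, 1 and 1 of them at an unadjusted p under 0.05, against 19.8%, 26.5%, 17.2% and 21.4% of all tested genes. Tfam, which packages mitochondrial DNA, stood at 49.7 and 60.8 FPKM in the E9.5 to E11.5 table and at 44.3 and 41.8 FPKM in wild type and Tet1-KO. Of 13 genes of protein import, the 1 call was Tomm40, lower in E13.5f, where 12% of all tested genes were called. All 13 had higher values at E11.5 than at E9.5, with a median log2 ratio of 0.48 beside 0.33 for all tested genes at 5 FPKM or more, of which 5224 of 6966 were higher. Relative to the table median 9 of the 13 lay above and 4 below.

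Among 10 regulators of mitochondrial biogenesis, Gabpa, the ETS factor whose core motif was searched, went from 17.5 to 47.0 FPKM between E9.5 and E11.5 (1.43 ± 0.48), with q = 0.0509 in the authors' deposited table, just above the threshold. Nrf1 was the 1 call among them, lower in Tet1-KO, where 6.16% of all tested genes and 9.51% of those at 5 FPKM or more were called. Relative to that table's median Nrf1 was not called. Ppargc1a, a coactivator known from muscle and brown fat, was listed at 0 in every group, while Mycn stood at 270.2 and 273.8 FPKM in the E9.5 to E11.5 table. No relation between these factors and the ribosomal genes was tested.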
